A study of Homo sapiens with 12 samples.

Results

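Untreated PC9 cells were compared with untreated HCC827 cells, using the 2 DMSO libraries of each line, which are 4 of the 12 RNA libraries of the series. The libraries were chosen by their labels, cell line and treatment, and not by any measured value. PC9 and HCC827 are established human lung adenocarcinoma lines that carry an activating mutation of EGFR, the receptor for epidermal growth factor, and each line stands for a single tumour. Both groups received only the solvent DMSO for 24 hours before harvest. The other 8 libraries are of the third EGFR-mutant line, HCC4006, given DMSO, and of all 3 lines in a state that the labels call dormant, with 2 libraries for each. They enter the filter on low values and the estimate of the spread, and so bear on every p-value, and their levels serve for reference. Dormant cells had taken 100 nM osimertinib, an EGFR inhibitor, with 30 nM trametinib, a MEK inhibitor, for 2 weeks, in a larger dish. Plates were set up in duplicate, and nothing says that they came from separate cultures, so p-values speak only of the spread among the libraries at hand, which may be technical.

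EGFR is a receptor tyrosine kinase whose activating mutations drive growth through the RAS, MEK and ERK kinases, and its ligands include amphiregulin, epiregulin and TGF-alpha. In normal lung, alveolar cells depend on the transcription factor NKX2-1 and make surfactant, whereas basal cells of the airway and squamous epithelium express keratins such as KRT5 and KRT14. NRF2 is a transcription factor that is held down by KEAP1 and, when released, induces enzymes that detoxify reactive compounds, among them the aldo-keto reductases, and that supply NADPH.

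Levels are in FPKM as the authors computed them, which divides fragments by gene length and sequencing depth; counts are not used here, so the depth in reads is unknown. A relative depth was estimated from U6 pseudogenes, which are of like length, by taking as the worth of 1 fragment the FPKM step that the largest number of their values match within 10%, as 1 or 2 steps. It put the second PC9 library at 107% of the depth of the first and the HCC827 libraries at 76.6% and 63.6%. The PC9 libraries correlated at r = 0.991 across tested genes and the HCC827 libraries at 0.909, on the log2(FPKM + 1) scale. The second HCC827 library stood apart. It listed 802 tested genes at 0, against 566 to 594 in the other DMSO libraries of these lines, and gave the actin gene ACTB 1842 FPKM, against 12726 in the first HCC827 library and 14682 and 14347 in PC9. When genes with a length and at least 5 FPKM in the higher line were ranked by length into 5 classes of nearly equal size, the second HCC827 library was higher than the first in the shortest class, by a median of 0.27 on the log2 scale, while in the other classes the median gap lay between -0.74 and -0.25. In that shortest class the median PC9 minus HCC827 difference was -0.61, against -0.23 to 0.09 in the other classes. Results are therefore also given without this library, and its part in each of them was otherwise not tested. The epithelial markers EPCAM, KRT7, KRT8, KRT18 and KRT19 were at 69.2 FPKM or more in all 4 libraries. The remaining lung adenocarcinoma markers were lower in PC9. CDH1 had 6.68 and 5.22 FPKM in PC9 and 85.5 and 41.8 FPKM in HCC827. NAPSA had 0.145 and 0.07 FPKM against 72.1 and 11 FPKM. NKX2-1 and SFTPB were at or below 0.04 FPKM in PC9 and at or below 2.21 FPKM in HCC827. PTPRC, CD3E and COL3A1, which mark leukocytes and fibroblasts, were listed at 0 in each of the 4 libraries, and 1 or 2 of 14 markers of non-epithelial cells reached 1 FPKM in any library. These markers summed to 29.9 and 27.3 FPKM in PC9 and to 23.8 and 6.81 FPKM in HCC827, most of it CD68, a lysosomal membrane protein of macrophages and other cells. In bulk RNA, fewer cells of a type and less RNA per cell cannot be told apart.

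The lines differed in 1213 of 14699 tested genes (8.25%) at an adjusted p under 0.05 from limma with Benjamini-Hochberg adjustment, and a gene is called different below only when it passed that threshold. PC9 was higher in 609 of them (4.14%) and HCC827 in 604 (4.11%). The median difference over all tested genes was -0.08. All differences are PC9 minus HCC827 on the log2(FPKM + 1) scale, given with their SE, so they understate the ratio of genes with low FPKM. The difference was at least 5 log2 units in 47 genes higher in PC9 and in 23 genes higher in HCC827. In 172 of the genes higher in PC9 both HCC827 libraries were under 0.1 FPKM, and in 113 of those higher in HCC827 both PC9 libraries were. Both PC9 libraries lay above both HCC827 libraries in 27.7% of all tested genes and below them in 36.9%, so a gap between groups of 2 is by itself common here. In data simulated for this comparison, changes up or down were put on genes above a floor of expression in HCC827, and values were cut at 0. The test called 0% of genes changed by 1 log2 unit, 8% of those changed by 2, 72% at 4 and 86% at 6. A gene that was not called may therefore still differ. Downward changes cut at 0 are smaller than stated, and these rates do not cover genes under the floor. Only 50 genes per size of change were made to differ among 14699, whereas 1213 were called in the data. The Benjamini-Hochberg adjustment is stricter where fewer genes differ, so these rates need not hold for the actual comparison. Counts of called members of any gene list below are to be read against the 4.14% and 4.11% of all tested genes. The lists were chosen with earlier results of these data known, so a larger share is not independent of the data. Refits without 1 of the 4 DMSO libraries leave 1 library in that group, which by itself widens the SE. A call lost in such a refit need not hang on the values of the library left out. Leaving out 1 DMSO library changed the number of calls to 360 without the first PC9 library, 387 without the second, 1320 without the first HCC827 library and 536 without the second. Those without the second HCC827 library are 3.65% of tested genes, 1.82% in each direction. The spread was estimated over all 12 libraries, and without the second dormant HCC4006 library, which listed 1948 tested genes at 0 at an estimated 38% of the first PC9 library's depth, 4124 genes were called.

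**Figure D1:**
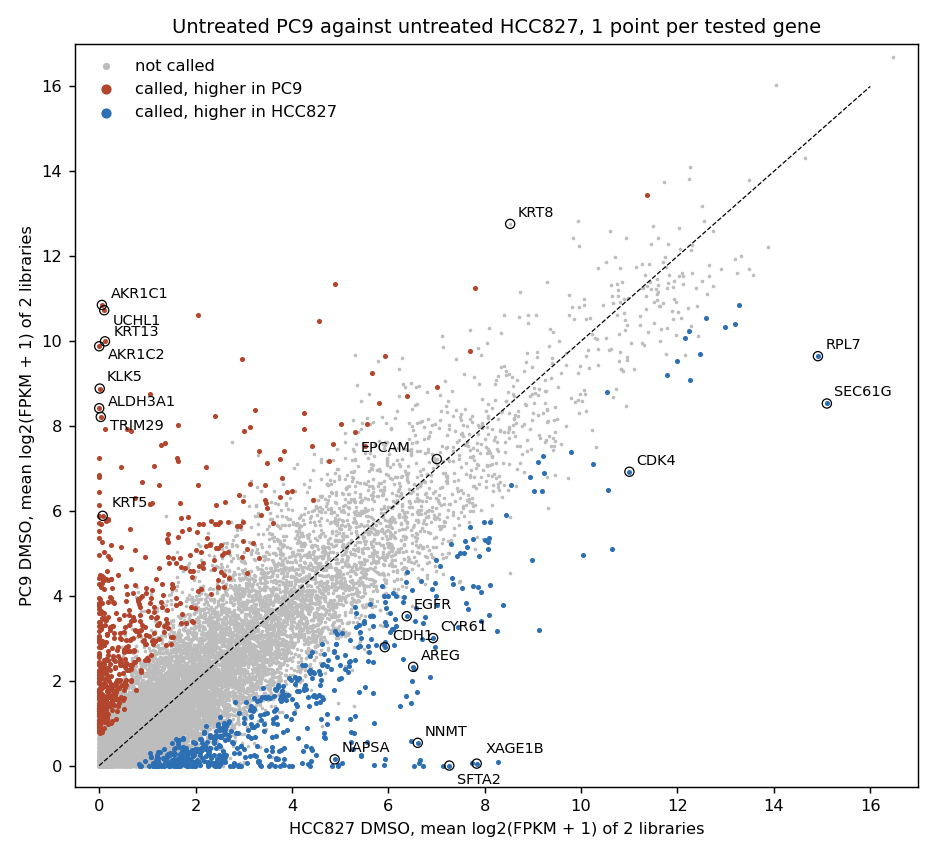
Mean log2(FPKM + 1) of the 2 HCC827 DMSO libraries (x axis) against that of the 2 PC9 DMSO libraries (y axis), 1 point per tested gene, with called genes in colour and named genes circled. AKR1C1, UCHL1 and KRT13 stand on the left edge above a y value of 9, where HCC827 is near 0, while SEC61G and RPL7 lie far right of the dashed line of equality.

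Enzymes of carbonyl and aldehyde metabolism showed some of the widest gaps, abundant in PC9 and at or near 0 in HCC827. Of 34 tested genes on a list of aldo-keto reductases, aldehyde dehydrogenases and NRF2 target genes, 15 were higher in PC9 and 0 in HCC827, against 4.14% and 4.11% of all genes, and the median difference was 2.14. AKR1C1, a dehydrogenase of steroids and prostaglandins, had 1981 and 1723 FPKM in PC9 and 0.08 and 0 FPKM in HCC827, a difference of 10.80 ± 0.39 (adjusted p = 1.71e-06), the largest among the named genes. Its neighbour AKR1C2 had 987 and 896 FPKM in PC9 and was listed at 0 in both HCC827 libraries (difference 9.88 ± 0.44, adjusted p = 3.94e-06). AKR1C3, which reduces ketosteroids and prostaglandin D, had 1686 and 1480 FPKM against 3.48 and 2.81 FPKM (difference 8.58 ± 0.49, adjusted p = 1.33e-05). Genes with the largest differences were picked among called genes without overlap between the lines, so the separation in these 3 genes follows from the choice. The coding sequences of AKR1C1, AKR1C2 and AKR1C3 are close to one another, so how reads were split between them is uncertain. The liver form AKR1C4 had 16.3 and 12.8 FPKM in PC9 and was listed at 0 in HCC827.

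Related aldo-keto reductases of the polyol pathway and of retinal reduction were also higher in PC9. AKR1B1, aldose reductase, had 2693 and 2513 FPKM in PC9 against 48 and 17.3 FPKM in HCC827, and AKR1B10 had 197 and 188 FPKM against 1.72 and 1.46 FPKM. ALDH3A1, which oxidises aromatic and lipid aldehydes, had 340 and 343 FPKM in PC9 and was listed at 0 in HCC827 (difference 8.42 ± 0.54, adjusted p = 2.22e-05). ALDH1A3, which makes retinoic acid, was closer, with 44.9 and 77.1 FPKM against 10.8 and 7.86 FPKM. UGT1A6, a glucuronosyltransferase, had 162 and 142 FPKM in PC9 and was listed at 0 in HCC827 (difference 7.25 ± 0.74, adjusted p = 0.000296), but UGT1A genes share most exons and their split is uncertain. GPX2, a glutathione peroxidase of epithelia, had 274 and 248 FPKM against 1.58 and 2.77 FPKM. The cystine importer SLC7A11 had 9.84 and 8.06 FPKM against 0.745 and 0.97 FPKM. The thioredoxin reductase TXNRD1 had 440 and 397 FPKM against 119 and 56.6 FPKM. NR0B1, a nuclear receptor that lacks a DNA-binding domain, had 4.33 and 5.45 FPKM and was listed at 0 in HCC827. CBR3, a carbonyl reductase, and the exporter ABCC2 complete the 15, with differences of 2.49 and 1.37.

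Not every gene of this list was far apart. NQO1, a quinone reductase often read as a marker of NRF2 activity, was abundant in both lines, with 872 and 829 FPKM in PC9 and 682 and 436 FPKM in HCC827 (difference 0.64 ± 0.75, adjusted p = 0.689). The glutathione synthesis genes GCLC and GCLM had differences of 0.45 and 0.18 and the haem-degrading enzyme HMOX1 of -0.80, none of them called. Transketolase, TKT, whose HCC827 libraries lay far apart, had 743 and 727 FPKM against 230 and 12.4 FPKM, and its difference of 3.73 was not called (adjusted p = 0.147). Of the 15 calls, 10 held whichever of the 4 libraries was left out. TXNRD1 and CBR3 lost the call without either PC9 library or without the second HCC827 library, SLC7A11 without either PC9 library, ALDH1A3 without the second PC9 library and ABCC2 whichever of the 4 was left out (adjusted p up to 0.242). The list held 11 and 10 calls without the first and second PC9 library, 18 and 12 without the first and second HCC827 library. With the second HCC827 library and the second dormant HCC4006 library both left out, 21 members were higher in PC9 and 3 in HCC827, beside 9.2% and 16.4% of all genes, or 25.6% in either direction.

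**Figure D2:**
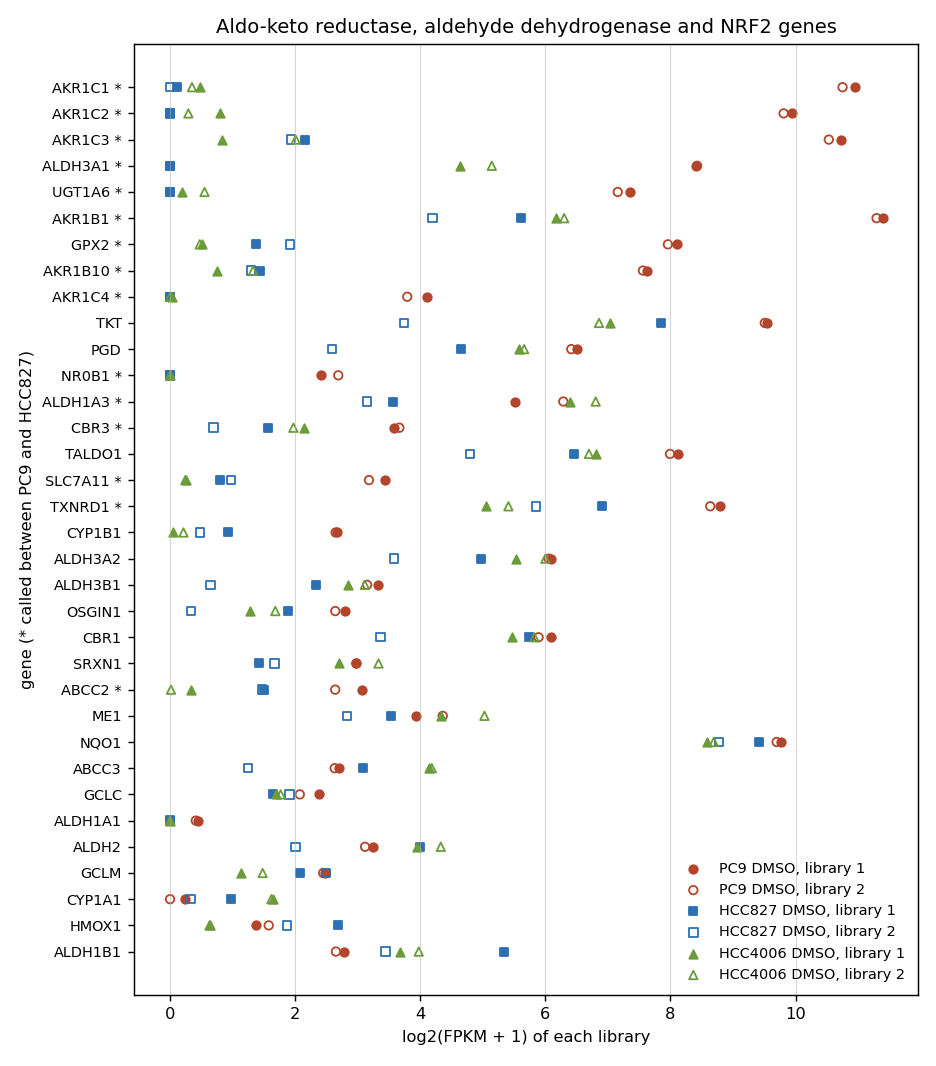
Log2(FPKM + 1) in each DMSO library of PC9, HCC827 and HCC4006 (x axis) for the 34 tested genes of the list (y axis), ordered by the PC9 minus HCC827 difference, with called genes starred. In the AKR1C genes and UGT1A6 the HCC4006 libraries lie near HCC827 and far below PC9, and in ALDH3A1 they lie between the other lines.

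Promoter windows are shown for the AKR1C pair with the widest gap and for the called members whose window held a match to the core of the antioxidant response element, the sequence that NRF2 binds. Each runs from 250 bases before to 50 bases after the start of the gene, from RefSeq on GRCh38.p14, which is a later build than that of the authors' values. The motif searched was TGACNNNGC on either strand, and matches are in capitals. AKR1C1 is at chr10:4963165-4963464 (plus strand), AKR1C2 at chr10:5003808-5004107 (minus strand), GPX2 at chr14:64942696-64942995 (minus strand) and TXNRD1 at chr12:104215529-104215828 (plus strand).
AKR1C1: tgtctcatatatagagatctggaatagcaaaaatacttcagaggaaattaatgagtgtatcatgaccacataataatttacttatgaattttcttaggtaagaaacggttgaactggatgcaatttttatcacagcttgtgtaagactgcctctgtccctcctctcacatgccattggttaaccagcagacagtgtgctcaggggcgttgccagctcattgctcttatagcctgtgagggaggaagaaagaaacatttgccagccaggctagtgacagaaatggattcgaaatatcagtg
AKR1C2: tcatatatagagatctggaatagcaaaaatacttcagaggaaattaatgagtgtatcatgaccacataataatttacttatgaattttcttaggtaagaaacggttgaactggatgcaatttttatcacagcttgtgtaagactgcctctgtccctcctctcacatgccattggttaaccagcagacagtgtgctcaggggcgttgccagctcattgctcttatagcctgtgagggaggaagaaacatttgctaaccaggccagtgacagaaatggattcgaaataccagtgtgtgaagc
GPX2: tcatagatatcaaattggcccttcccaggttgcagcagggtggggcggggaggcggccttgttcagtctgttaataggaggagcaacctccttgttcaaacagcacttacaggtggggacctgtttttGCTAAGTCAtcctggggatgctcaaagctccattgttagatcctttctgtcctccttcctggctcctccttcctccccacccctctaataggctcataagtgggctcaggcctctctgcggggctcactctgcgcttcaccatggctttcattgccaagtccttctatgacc
TXNRD1: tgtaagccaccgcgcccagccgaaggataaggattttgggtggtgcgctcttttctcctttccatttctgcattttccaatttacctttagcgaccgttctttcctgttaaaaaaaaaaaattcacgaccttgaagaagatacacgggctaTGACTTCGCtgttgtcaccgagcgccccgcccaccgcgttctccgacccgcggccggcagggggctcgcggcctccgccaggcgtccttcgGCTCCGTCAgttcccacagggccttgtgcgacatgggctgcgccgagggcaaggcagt
The windows of AKR1C1 and AKR1C2 share an unbroken run of 245 of 300 bases, whereas the longest run shared by AKR1C1 and AKR1C3 is 18 bases. GPX2 held 1 match and TXNRD1 held 2. AKR1C1, AKR1C2 and AKR1C3 held none, which says only that these letters are not in the window. A promoter was given for 26 of the 34 members, of which 6 (23.1%) held a match, beside 15.3% of 9106 promoters of tested genes and 13.3% of all 35116. Among called members with a promoter, 2 of 11 held one.

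Keratins, the intermediate filament proteins of epithelia, also differed. Of 15 tested keratin genes, 6 (40.0%) were higher in PC9 and 1 (6.67%) in HCC827, against 4.14% and 4.11% of all tested genes, with a median difference of 2.60. KRT13, a keratin of the suprabasal layers of non-cornifying squamous epithelium, had 1081 and 961 FPKM in PC9 and 0.18 and 0 FPKM in HCC827 (difference 9.88 ± 0.40, adjusted p = 2.71e-06). The basal keratin KRT5 had 65.6 and 51.4 FPKM against 0.105 and 0 FPKM (difference 5.81 ± 0.35, adjusted p = 1.64e-05). KRT6A had 116 and 89.2 FPKM against 2.08 and 0.11 FPKM. KRT6B had 14.6 and 12 FPKM against 0.07 and 0 FPKM, although reads of these 2 near copies may be split between them. KRT17, induced in stressed epidermis, had 86.2 and 70.9 FPKM against 1.5 and 0.105 FPKM. The basal keratin KRT14 had 2.57 and 1.71 FPKM and was listed at 0 in HCC827. In all 6 both PC9 libraries lay above both HCC827 libraries. That held for 10 of the 15 tested keratins, and the reverse for 1, against 27.7% and 36.9% of all tested genes. KRT4, the usual partner of KRT13, went the other way, with 0.17 and 0.075 FPKM in PC9 and 4.6 and 1.46 FPKM in HCC827 (difference -1.73, adjusted p = 0.0407).

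The simple-epithelium keratins KRT8 and KRT18 had differences of 4.23 and 2.60 without being called: KRT8 had 7249 and 6645 FPKM in PC9, 1314 FPKM in the first HCC827 library and 103 FPKM in the second. TP63, the transcription factor that specifies basal cells, was between 0.095 and 0.335 FPKM in all 4 libraries (difference -0.11 ± 0.34, adjusted p = 0.905). KRT14 lost its call without the first PC9 or the second HCC827 library, KRT17 without either PC9 or the second HCC827 library, and KRT4 without either PC9 or the first HCC827 library (adjusted p up to 0.256). The number of keratins higher in PC9 was 4 to 6 over these refits. On an overlapping list of 11 airway lineage genes, KRT5, KRT14 and the trefoil peptide TFF1 were higher in PC9 (27.3%, against 4.14% of all tested genes). On that list 0 were higher in HCC827, and the median was 0.02. TFF1, secreted by mucous cells, had 12.1 and 9.42 FPKM against 0.44 and 0.63 FPKM (difference 2.93 ± 0.24, adjusted p = 8.21e-05).

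Many proteases and their inhibitors were higher in PC9. Of 17 tested genes of this list 8 (47.1%) were higher in PC9, against 4.14% of all tested genes, and 0 in HCC827, with a median of 0.84. The kallikreins are serine proteases encoded side by side on chromosome 19 and known for shedding of the skin's outer layer. KLK5 had 494 and 448 FPKM in PC9 and 0.015 and 0 FPKM in HCC827 (difference 8.87 ± 0.88, adjusted p = 0.000265). KLK6 had 845 and 699 FPKM against 10.4 and 4.34 FPKM (difference 6.63 ± 1.19, adjusted p = 0.00829). KLK7 had 20.6 and 19 FPKM against 0.085 and 0.06 FPKM. KLK8 had 24.1 and 16.6 FPKM against 0.2 and 0 FPKM. KLK10 had 11.2 and 8.27 FPKM against 0.44 and 0.725 FPKM. All 5 kallikreins on the list that were tested were called. PLAT, the tissue plasminogen activator, the protease inhibitor SERPINE2 and the metalloproteinase inhibitor TIMP3 were higher in PC9 by 2.82, 3.60 and 2.07. TIMP1, another such inhibitor, pointed the other way with 19.3 and 19.4 FPKM in PC9 and 183 and 174 FPKM in HCC827, but was not called (adjusted p = 0.0805). KLK10 lost its call when any of the 4 libraries was left out, and KLK6 without either PC9 or the second HCC827 library (adjusted p up to 0.153), and the list held 6 or 7 calls in those refits.

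Several other genes were abundant in PC9 and at or near 0 in HCC827. UCHL1, a deubiquitinating enzyme best known from neurons, had 1754 and 1637 FPKM in PC9 and 0.155 and 0 FPKM in HCC827 (difference 10.62 ± 0.73, adjusted p = 2.83e-05). TRIM29, a protein of squamous epithelia, had 363 and 241 FPKM against 0.015 and 0.03 FPKM (difference 8.18 ± 0.69, adjusted p = 9.74e-05). LCN2, an iron-scavenging lipocalin, had 456 and 401 FPKM against 1.23 and 0.925 FPKM. SPP1, the matrix phosphoprotein osteopontin, had 263 and 226 FPKM against 0.46 and 0.53 FPKM. The HCC827 libraries were below 2 FPKM in each of these genes. The genes with the largest differences had to be called and without overlap, so their separation follows from the choice. CRIP1, a LIM domain protein, had 112 and 109 FPKM and was listed at 0 in HCC827. Among 11 tested S100 genes, which encode small calcium-binding proteins, S100P, S100A14, S100A4 and S100A9 were higher in PC9 (36.4%, against 4.14% of all tested genes) and 0 were higher in HCC827. S100P had 96.1 and 98 FPKM against 0.605 and 2.44 FPKM (difference 5.38 ± 0.48, adjusted p = 0.00012). S100A14 had 145 and 118 FPKM against 3.31 and 4.05 FPKM. S100A4, linked to cell motility, had 75.8 and 67.4 FPKM against 2.01 and 2.44 FPKM. S100A9 lost its call without the second PC9 library (adjusted p = 0.0617).

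Cancer-testis antigen genes, which are normally read in the germ line and lie largely on the X chromosome, split between the lines. This list was chosen after the values were seen. Of 75 listed genes 17 passed the filter on low values, and 9 of these (52.9%) were higher in PC9 and 3 (17.6%) in HCC827. Over all tested genes the shares were 4.14% and 4.11%. Genes near 0 in most libraries pass that filter only through groups in which they are high, so a large share of calls is partly built in. Without the filter, 10 and 4 of 57 members were called, beside 522 and 451 of 40839 genes. MAGEA6 had 267 and 222 FPKM in PC9 and 0.17 and 0 FPKM in HCC827 (difference 7.82 ± 0.36, adjusted p = 3.94e-06). MAGEA3 had 256 and 216 FPKM against 0.43 and 0.735 FPKM. These 2 genes are near copies, so reads may be shared between them. MAGEA12, MAGEA2B and CSAG1, from the same stretch of the X chromosome, were higher in PC9 by 4.34, 2.91 and 2.78, and SSX1, MAGEC1, SSX2 and CSAG4 by 1.06 to 1.94. Other members were high in HCC827. XAGE1B had 143 and 360 FPKM in HCC827 and 0.015 and 0.05 FPKM in PC9 (difference -7.79 ± 0.51, adjusted p = 2.22e-05). Its copy XAGE1A had 19.6 and 45.3 FPKM and 0.015 in each PC9 library. CT83 had 82 and 134 FPKM in HCC827 and was listed at 0 in PC9 (difference -6.72 ± 0.60, adjusted p = 0.000127). Only CSAG4 and SSX2 lost a call in the 4 refits: SSX2 without the second PC9 library, and CSAG4 without the first PC9 or the second HCC827 library (adjusted p up to 0.107).

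Other genes were high in HCC827 and low in PC9. SFTA2, a surfactant-associated secreted protein of lung, had 108 and 217 FPKM in HCC827 and was listed at 0 in both PC9 libraries (difference -7.26 ± 1.04, adjusted p = 0.00218). NNMT, which methylates nicotinamide, had 93.3 and 100 FPKM against 0.575 and 0.335 FPKM in PC9 (difference -6.07 ± 0.49, adjusted p = 7.44e-05). The tetraspanin-like gene TM4SF18 had 61.9 and 154 FPKM against 0.055 and 0.025 FPKM. These genes were picked for a large difference among called genes without overlap between the lines, so their separation follows from the choice. G0S2, an inhibitor of fat breakdown, had 850 and 366 FPKM in HCC827 and 9.36 and 7.08 FPKM in PC9 (difference -5.93 ± 0.51, adjusted p = 0.00011). BICC1, an RNA-binding protein, had 59.9 and 58.3 FPKM against 0.02 and 0.01 FPKM. C12orf75 had 57.4 and 62.7 FPKM against 0 and 0.25 FPKM. HPGD, which inactivates prostaglandins, had 64.2 and 27.4 FPKM in HCC827 and 0.135 and 0.26 FPKM in PC9 (difference -5.17 ± 0.54, adjusted p = 0.000334). All 7 of these genes were called in each of the 4 refits.

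The lung lineage marker NKX2-1 was listed at 0 in both PC9 libraries and had 2.11 and 2.21 FPKM in HCC827 (difference -1.66 ± 0.33, adjusted p = 0.0128). NAPSA, an aspartic protease of alveolar cells and a clinical marker of adenocarcinoma, had 0.145 and 0.07 FPKM in PC9, 72.1 FPKM in the first HCC827 library and 11 FPKM in the second (difference -4.74 ± 0.98, adjusted p = 0.0166). Both markers were thus at or near 0 in PC9, and the surfactant gene SFTPB was at or below 0.04 FPKM in PC9 and had 1.84 and 0.395 FPKM in HCC827 (difference -0.96, adjusted p = 0.0966). Of 15 tested alveolar lineage genes, NAPSA, NKX2-1 and LPCAT1, an enzyme of surfactant lipid synthesis, were higher in HCC827 (20%, against 4.11% of all tested genes). CAV1, the caveolar protein of flat alveolar cells, was the 1 member higher in PC9, with 920 and 836 FPKM against 241 and 175 FPKM. The median of the list was -0.44. Without either PC9 library 0 of these members were called, and CAV1 and NKX2-1 also missed the threshold without the second HCC827 library, NAPSA and LPCAT1 without the first (adjusted p up to 0.243).

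Adhesion genes differed in both directions. CDH1, E-cadherin of adherens junctions, had 6.68 and 5.22 FPKM in PC9 and 85.5 and 41.8 FPKM in HCC827 (difference -3.14 ± 0.57, adjusted p = 0.00852). The tight junction genes CLDN7 and CLDN4 went the other way, CLDN7 with 622 and 593 FPKM in PC9 against 119 and 20.2 FPKM and CLDN4 with 181 and 159 FPKM against 32.4 and 5.06 FPKM. RAB25, a small GTPase of epithelial trafficking, had 41.3 and 37.5 FPKM against 2.07 and 1.32 FPKM (difference 3.92 ± 0.78, adjusted p = 0.0133). With the protease TMPRSS4 and the transcription factor EHF, 5 of 26 (19.2%) epithelial identity genes were higher in PC9 and CDH1 alone (3.85%) in HCC827. Over all tested genes the shares were 4.14% and 4.11%. The list's median was 0.33. EPCAM had 99.8 and 220 FPKM in PC9 and 234 and 69.2 FPKM in HCC827, so the lines overlapped. CLDN9 joined CLDN4 and CLDN7 as 3 of 17 (17.6%) claudin and tight junction genes higher in PC9, with 0 higher in HCC827. The list did not lean to PC9, with a median of -0.04. Both PC9 libraries lay above both HCC827 libraries in 3 of its members and below in 6, against 27.7% and 36.9% of all tested genes. Without the first or the second PC9 library 1 of the epithelial genes, TMPRSS4, kept its call, and without the second HCC827 library TMPRSS4 and CDH1 did (adjusted p of the others up to 0.273).

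Mesenchymal genes were likewise mixed, with SPARC higher in PC9, NNMT higher in HCC827 and 20 tested. Those calls are 5% of the list in each direction, against 4.14% and 4.11% of all tested genes. In 11 of the 20 both PC9 libraries lay above both HCC827 libraries, and in 2 below, against 27.7% and 36.9% of all tested genes. With the 4 libraries fitted alone 6 were called higher in PC9 and 1 in HCC827, and with the 6 DMSO libraries 5 and 1. SPARC, a collagen-binding matrix protein, had 15.2 and 14.2 FPKM against 0.045 and 0.29 FPKM (difference 3.75 ± 0.79, adjusted p = 0.0174), a call lost when any of the 4 libraries was left out. Vimentin, VIM, had 11.7 and 10.8 FPKM in PC9 and 25.9 and 7.23 FPKM in HCC827 (difference -0.28 ± 0.57, adjusted p = 0.835), and the repressor of epithelial genes ZEB1 was at or below 0.29 FPKM in all 4 libraries. The receptor kinase AXL had 67.4 and 49.2 FPKM in PC9 and 2.27 and 1.07 FPKM in HCC827, without overlap, and its difference of 4.49 ± 1.32 was not called (adjusted p = 0.0698). Of 22 integrin and laminin genes, ITGB4, the hemidesmosome integrin, and LAMA4 were higher in PC9 by 2.67 and 2.75 (9.09%, against 4.14% of all tested genes). In HCC827 0 were higher. ITGB4 lost its call without either PC9 or the second HCC827 library (adjusted p up to 0.216). MUC20 was the 1 of 8 mucin and CEACAM genes to be called, higher in PC9 by 3.37, but not without the first PC9 library (adjusted p = 0.0633).

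EGFR itself was higher in HCC827. It had 10.6 and 10.3 FPKM in PC9 and 80.9 and 83.8 FPKM in HCC827 (difference -2.86 ± 0.57, adjusted p = 0.0137). Its relatives were not called: ERBB2 had 1.07 and 1.23 FPKM in PC9 and 1.65 and 1.56 FPKM in HCC827 (difference -0.28 ± 0.53). ERBB3 had 5.19 and 6.33 FPKM against 3.16 and 1.76 FPKM (difference 0.99 ± 0.41). Among the ligands, amphiregulin AREG had 3.89 and 4.13 FPKM in PC9 and 120 and 68 FPKM in HCC827 (difference -4.19 ± 0.42, adjusted p = 0.000265). Epiregulin EREG had 0.22 and 0.03 FPKM against 13.1 and 13.3 FPKM in HCC827. The ERBB3 and ERBB4 ligand NRG1 had 0.08 and 0 FPKM against 5.95 and 9.15 FPKM. Betacellulin BTC was also higher in HCC827 (difference -1.29, adjusted p = 0.0288). TGFA had the reverse order, with 6.59 and 8.44 FPKM in PC9 and 1.42 and 0.585 FPKM in HCC827 (difference 2.11 ± 0.46, adjusted p = 0.0213), as had the low EPGN (difference 0.77). ERRFI1, a feedback inhibitor of EGFR, had 1.42 and 1.11 FPKM against 29.8 and 50.1 FPKM in HCC827 (difference -4.14 ± 0.52, adjusted p = 0.00103).

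In all, 6 (37.5%) of 16 tested ERBB receptors, ligands and regulators were higher in HCC827 and 2 (12.5%) in PC9, against 4.11% and 4.14% of all tested genes, at a median of -0.02. AREG, EREG, NRG1 and ERRFI1 were called whichever library was left out. EGFR and TGFA lost the call without either PC9 or the second HCC827 library, and BTC and EPGN whichever of the 4 was left out (adjusted p up to 0.252). The 27 other receptor tyrosine kinases and ligands held 1 call each way, PTK7 in PC9 and the TAM receptor ligand PROS1 in HCC827, both lost without either PC9 library (adjusted p up to 0.272). MET had 12.5 and 10.1 FPKM in PC9 and 8.38 and 9.16 FPKM in HCC827 (difference 0.33 ± 0.48, adjusted p = 0.766).

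Several genes beside EGFR on chromosome 7 were also higher in HCC827. SEC61G, a subunit of the channel that carries proteins into the endoplasmic reticulum, had 383 and 354 FPKM in PC9 and 23554 and 52330 FPKM in HCC827 (difference -6.57 ± 0.86, adjusted p = 0.00127). LANCL2 had 10.1 and 8.51 FPKM against 207 and 51.7 FPKM. VOPP1 had 16.6 and 18.2 FPKM against 368 and 145 FPKM. The mitochondrial ribosomal gene MRPS17 had 31 and 24.7 FPKM against 328 and 782 FPKM. None of these overlapped between the lines, but both PC9 libraries lay below both HCC827 libraries in 36.9% of all tested genes. Of 11 tested genes on the list of EGFR and its neighbours, 5 (45.5%) were higher in HCC827 and 0 in PC9, against 4.11% and 4.14% of all tested genes. The median was -2.08 against -0.08 over all genes. The remaining 6, CHCHD2 and PSPH among them, had differences between -2.08 and 0.11 and were not called. Without the second HCC827 library the difference of SEC61G was -5.99 and that of MRPS17 -3.52, both called. LANCL2 lost its call without either PC9 or the first HCC827 library and VOPP1 without either PC9 library (adjusted p up to 0.138), leaving 2 to 4 calls.

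Other runs of neighbouring genes were found by the median difference of 9 consecutive tested genes in the gene order of GENCODE v29, and were therefore chosen by their values. The lowest was on chromosome 12, from MBD6 to CDK4, with a median of -3.80 and 5 genes higher in HCC827. CDK4, the cyclin D partner that starts the cell cycle, had 125 and 115 FPKM in PC9, 6699 FPKM in the first HCC827 library and 627 FPKM in the second (difference -4.08 ± 0.91, adjusted p = 0.0226). OS9, a lectin of protein quality control, had 11.2 and 10.3 FPKM against 457 and 160 FPKM. PIP4K2C had 11.9 and 13.7 FPKM against 1052 and 105 FPKM. The antisense gene ENSG00000257342 had 0 and 0.2 FPKM against 70.8 and 141 FPKM, the widest gap of the run (difference -6.52 ± 0.68, adjusted p = 0.000365). It is not among the genes that lost a call. TSPAN31 had 5.54 and 4 FPKM against 86.3 and 71.2 FPKM. In the midst of them B4GALNT1, a ganglioside synthase, was higher in PC9, with 2.57 and 2.19 FPKM against 0.155 and 0.08 FPKM. CDK4 lost its call without either PC9 library, and OS9, PIP4K2C and TSPAN31 lost theirs in 3 or 4 of the 4 refits (adjusted p up to 0.211).

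On chromosome 8 the run from RPL7 to TMEM70 had a median of -2.96 and 6 of 9 genes higher in HCC827. RPL7, a ribosomal protein, had 855 and 748 FPKM in PC9 and 21066 and 45266 FPKM in HCC827 (difference -5.27 ± 0.53, adjusted p = 0.000292), with the reservation that RPL7 has processed copies elsewhere in the genome. ELOC, the elongin C subunit of ubiquitin ligases, had 32.2 and 28.3 FPKM against 683 and 1599 FPKM (difference -5.07 ± 0.68, adjusted p = 0.00152). UBE2W, a ubiquitin-conjugating enzyme, had 2.22 and 1.38 FPKM against 48.8 and 155 FPKM. TMEM70, an assembly factor of ATP synthase, had 14.3 and 9.8 FPKM against 280 and 142 FPKM. These 4 genes were called in all 4 refits, and without the second HCC827 library RPL7 differed by -4.72 and ELOC by -4.46. Around NKX2-1 on chromosome 14, 6 of 25 genes in order were higher in HCC827, among them MBIP with 2.77 and 1.48 FPKM against 17.4 and 32 FPKM, and SFTA3, listed at 0 in PC9, with 11.2 and 9.89 FPKM. Each of these 6 lost its call without at least 1 PC9 library (adjusted p up to 0.142). Over the whole of chromosome 14, 60 of 508 tested genes (11.8%) were higher in HCC827, and on chromosome 8 46 of 489 (9.41%), against 4.11% of all genes. In PC9 the highest runs held the MAGEA genes of the X chromosome (median 2.78) and the kallikreins of chromosome 19 (median 2.75).

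**Figure D3:**
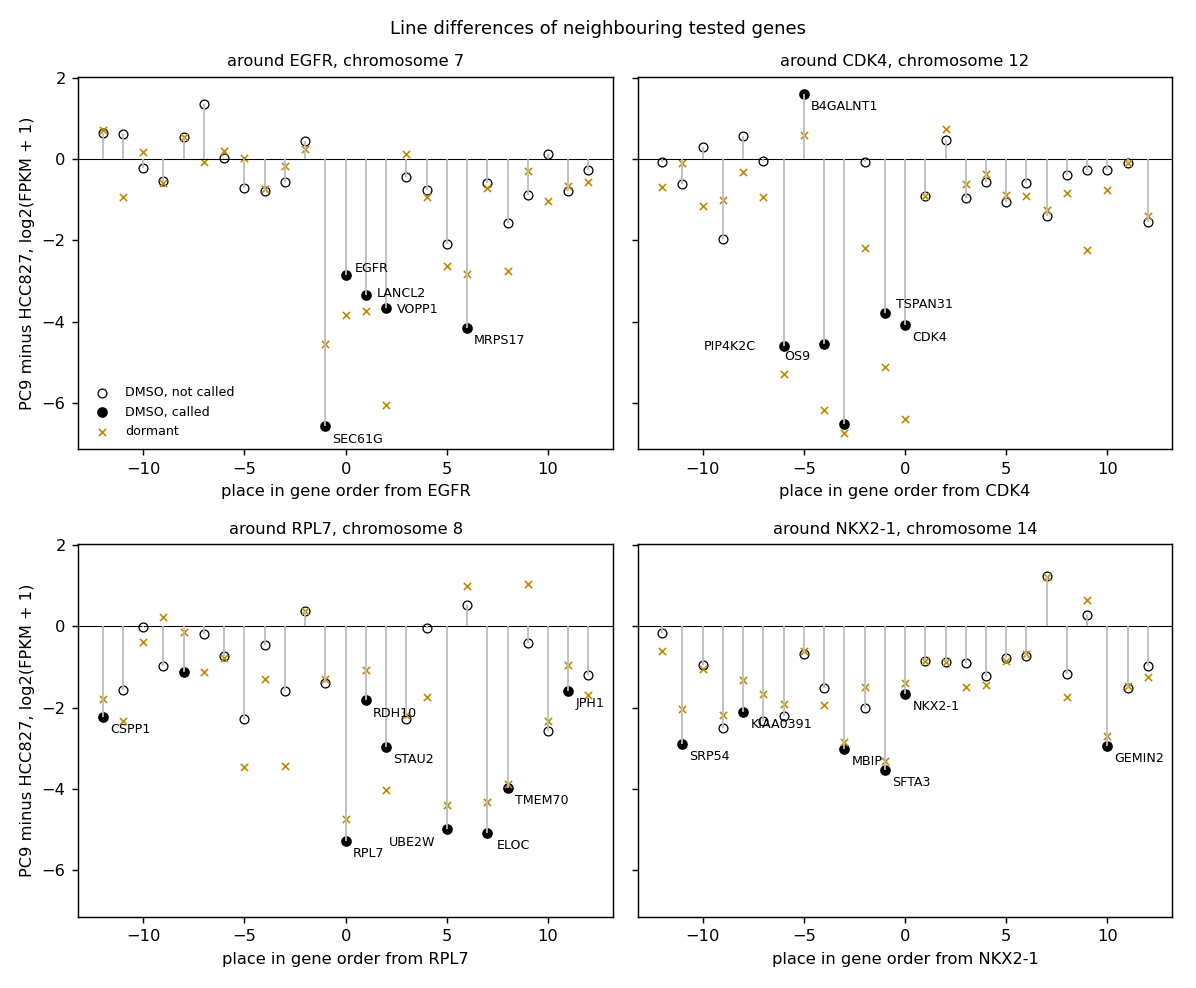
PC9 minus HCC827 difference on the log2(FPKM + 1) scale (y axis) of up to 25 tested genes in order around EGFR, CDK4, RPL7 and NKX2-1 (x axis, place in gene order from the named gene), in DMSO (circles, filled where called) and in dormant libraries (crosses). Called genes lie below 0 apart from B4GALNT1, and most of the crosses of called genes lie on the same side.

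Genes induced by ERK signalling did not move one way. Of 22 tested, IER3, DUSP4 and FOS were higher in PC9 and PHLDA1, CXCL8 and EGR1 in HCC827, at a median of -0.39. Those calls are 13.6% of the list in each direction, against 4.14% and 4.11% of all tested genes. IER3, an early response gene that restrains cell death, had 33.9 and 53.4 FPKM in PC9 and 2.18 and 1.25 FPKM in HCC827 (difference 4.03 ± 0.62, adjusted p = 0.00356). The ERK phosphatase DUSP4 had 4.14 and 4.76 FPKM against 1.14 and 0.31 FPKM. DUSP6, another such phosphatase, had 3.54 and 3.58 FPKM against 13.1 and 2.99 FPKM and was not called. PHLDA1 had 1.17 and 1.08 FPKM in PC9 and 15.6 and 14 FPKM in HCC827 (difference -2.89 ± 0.48, adjusted p = 0.0054). Each of these 6 calls was lost without at least 1 PC9 library (adjusted p up to 0.24).

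The study's title concerns YAP, a coactivator that binds TEAD transcription factors and is restrained by the Hippo kinases. YAP1 had 1.23 and 1.58 FPKM in PC9 and 0.86 and 2.24 FPKM in HCC827 (difference -0.03 ± 0.85, adjusted p = 0.998). Its paralogue WWTR1 had 16.7 and 14.6 FPKM against 38 and 40.8 FPKM, without overlap and without a call (difference -1.28 ± 0.71, adjusted p = 0.329). TEAD1, a DNA-binding partner of both, had 1.4 and 1.23 FPKM against 0.715 and 1.03 FPKM (difference 0.31 ± 0.59). Among 23 YAP and TEAD target genes, 2 (8.70%) were higher in HCC827 and 1 (4.35%) in PC9, against 4.11% and 4.14% of all tested genes. CYR61, a secreted matrix protein and a much used YAP readout, had 6.01 and 8.16 FPKM in PC9 and 138 and 106 FPKM in HCC827 (difference -3.93 ± 0.43, adjusted p = 0.000492). CTGF, of the same family, was low in both, with 0.74 and 0.78 FPKM in PC9 and 0.18 in each HCC827 library (difference 0.58 ± 0.50, adjusted p = 0.557). AJUBA was higher in HCC827 by a difference of -2.61 and CCDC80 in PC9 by 2.62, calls that were lost without either PC9 library and, for CCDC80, without either HCC827 library too (adjusted p up to 0.205).

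Of 22 Hippo components and TEAD factors 3 (13.6%) were higher in PC9 and 0 in HCC827, against 4.14% and 4.11% of all tested genes. VGLL1, a TEAD-binding cofactor that can take the place of YAP, had 73.7 and 64.6 FPKM in PC9 and was listed at 0 in HCC827 (difference 6.13 ± 0.52, adjusted p = 0.000101). The YAP-binding angiomotins AMOTL1 and AMOT were higher in PC9 by 2.22 and 0.79, but AMOTL1 not without either PC9 library and AMOT in none of the 4 refits (adjusted p up to 0.233).

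Of 18 genes of the BCL2 and IAP families, which set the threshold for cell death, 4 (22.2%) were higher in HCC827 and 1 (5.56%) in PC9, against 4.11% and 4.14% of all tested genes. BCL2A1, an anti-apoptotic member, was listed at 0 in PC9 and had 14.9 and 50.2 FPKM in HCC827 (difference -4.83 ± 0.46, adjusted p = 0.000214), a call kept in all 4 refits. The pro-apoptotic BID had 28.8 and 29 FPKM in PC9 against 1.33 and 0.61 FPKM (difference 3.95 ± 0.71, adjusted p = 0.00796). PMAIP1, which encodes NOXA, had 1.82 and 1.73 FPKM against 19.6 and 23.6 FPKM in HCC827. The protective MCL1 had 2.09 and 2.03 FPKM against 7.12 and 13.4 FPKM. BIRC3 had 2.41 and 1.91 FPKM against 8.89 and 22.4 FPKM. These 4 calls were lost without either PC9 library and without the second HCC827 library, and PMAIP1 also without the first (adjusted p up to 0.271). BCL2L11, which encodes BIM, had 2.08 and 1.94 FPKM in PC9 and 3.44 and 2.75 FPKM in HCC827 (difference -0.44 ± 0.34, adjusted p = 0.506). BMF was at or below 0.23 FPKM in all 4 libraries. BBC3, which encodes PUMA, was at or below 0.045 FPKM and was not tested, nor were SOX2 and SPRY4.

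Several chemokines that draw neutrophils were higher in HCC827. Of 24 cytokine and chemokine genes 7 (29.2%, against 4.11% of all tested genes) were higher in HCC827 and 0 in PC9, at a median of -0.47. CXCL1 had 0.06 FPKM in each PC9 library and 4.39 and 3.21 FPKM in HCC827 (difference -2.17 ± 0.30, adjusted p = 0.0017). CXCL2 had 0.045 and 0 FPKM against 7.12 and 4.89 FPKM. CXCL5, listed at 0 in PC9, had 2.85 and 2.24 FPKM. CXCL8 had 0.19 and 0.59 FPKM against 4.29 and 16.9 FPKM. The growth factor CSF2 was listed at 0 in PC9 and had 7.29 and 5.8 FPKM in HCC827 (difference -2.91 ± 0.23, adjusted p = 7.44e-05). CXCL3 and IL24 completed the 7, at -0.78 and -1.48, and lost their calls in all 4 refits, while CXCL8 lost its own without either PC9 library (adjusted p up to 0.211). The immune checkpoint ligand CD274 had 3.62 and 2.67 FPKM in PC9 and 8.34 and 8.48 FPKM in HCC827 and was not called (adjusted p = 0.11).

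Of 31 interferon-stimulated genes 7 (22.6%) were higher in HCC827 and 1 (3.23%) in PC9, against 4.11% and 4.14% of all tested genes, at a median of -0.72. IFI27 had 0.2 and 0.15 FPKM in PC9 and 44.4 and 39.5 FPKM in HCC827 (difference -5.19 ± 1.05, adjusted p = 0.0146). IFI44L had 0.01 and 0 FPKM against 5.78 and 6.89 FPKM. IFI44 had 1.58 and 0.525 FPKM against 6.11 and 15.2 FPKM. IRF9, a subunit of the factor that binds their promoters, had 2.74 and 2.84 FPKM against 21.9 and 11.1 FPKM. MX2, an antiviral GTPase, was the 1 gene higher in PC9 (1.58). Without either PC9 library or without the second HCC827 library 0 members were called, and 2 without the first HCC827 library, while the median stayed between -0.86 and -0.68. Antigen presentation genes held 2 calls of 18 for class I (11.1%) and 3 of 11 for class II (27.3%), against 8.25% of all tested genes in either direction. HLA-C and the trimming peptidase ERAP2 were higher in PC9 among 18 class I genes (median 1.25), and 0 in HCC827, but reads of HLA genes depend on how alleles align, and 0 were called without either PC9 or the second HCC827 library. HLA-C had 286 and 206 FPKM in PC9 and 66.3 and 4.38 FPKM in HCC827. Of 11 class II genes, CD74, the invariant chain, was higher in PC9 with 16.9 and 16.6 FPKM against 0.135 and 0 FPKM (difference 4.06 ± 0.55, adjusted p = 0.00162), as was HLA-DQB1 (2.74), and the protease CTSS was higher in HCC827 (-2.19), a call lost in all 4 refits (adjusted p up to 0.214). Of 16 complement genes, C3 and CLU (12.5%) were higher in PC9 and the C3b-degrading protease CFI (6.25%) in HCC827, against 4.14% and 4.11% of all tested genes. CFI had 17.3 and 17.4 FPKM in HCC827 against 0.01 and 0.075 FPKM (difference -4.14 ± 0.50, adjusted p = 0.000789). CLU lost its call in all 4 refits.

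Some secreted regulators of development were higher in PC9. DKK1, a Wnt antagonist, had 280 and 222 FPKM in PC9 and 12.8 and 4.57 FPKM in HCC827 (difference 4.83 ± 0.52, adjusted p = 0.00044). BMP4 had 19.3 and 15.2 FPKM against 0.38 and 0.04 FPKM (difference 3.92 ± 0.53, adjusted p = 0.0016). INHBA, the activin A subunit, had 8.34 and 7.46 FPKM against 0.325 and 0.52 FPKM. The list of 26 tested TGF-beta, BMP and Wnt genes also holds TGFA, which encodes an EGFR ligand and is not of these families. With it, 4 (15.4%) were higher in PC9 and 1 (3.85%) in HCC827, against 4.14% and 4.11% of all tested genes. The 1 was ID2, an inhibitor of differentiation factors listed at 0 in PC9, with 5.54 and 7.2 FPKM in HCC827. INHBA, TGFA and ID2 lost their calls without either PC9 library or without the second HCC827 library (adjusted p up to 0.197).

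Calls among cell cycle genes were 2 of 16 on a list of inhibitors, D cyclins and related genes (12.5%) and 1 of 25 mitosis genes (4%). Over all tested genes the share was 8.25%. CDK4 and MTAP, a methionine salvage enzyme, were the first list's calls, so no inhibitor or D cyclin on it was called. Both were higher in HCC827, MTAP with 9.64 and 8.09 FPKM in PC9 against 47.2 and 54 FPKM. CDKN2A had 26.1 and 38.6 FPKM in PC9 and 63.6 and 6.34 FPKM in HCC827, CCND1 had 15.2 and 24.8 FPKM against 24.5 and 4.57 FPKM, and neither was called. Of 25 mitosis genes PLK1 was called, higher in PC9 by 3.65 ± 0.98 (adjusted p = 0.0497). The proliferation marker MKI67 had 5.92 and 4.37 FPKM in PC9 and 6.17 and 5.12 FPKM in HCC827 (difference -0.12 ± 0.39, adjusted p = 0.912). MYC had 19.3 and 16.5 FPKM against 57.9 and 21.1 FPKM (difference -0.94 ± 0.50). The cell cycle inhibitor CDKN1A had 3.44 and 4.07 FPKM against 1.3 and 0.2 FPKM (difference 1.51 ± 0.46). Neither MYC nor CDKN1A was called. MTAP and PLK1 lost their calls without either PC9 or the second HCC827 library (adjusted p up to 0.274).

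Genes of basic cell function held calls in several lists. Of 35 ribosomal protein genes RPL7, RPS6, RPL23 and RPL38 were higher in HCC827 (11.4%, against 4.11% of all tested genes) and 0 in PC9, at a median of -0.51 that became 0.05 after quantile scaling, and RPL7 alone was called without the second HCC827 library. Of 13 mitochondrially encoded genes MT-ND5 and MT-ND4, subunits of respiratory complex I, were higher in PC9 by 3.46 and 2.07 (15.4%, against 4.14% of all tested genes). MT-ND5 had 2435 and 2427 FPKM in PC9 and 213 and 228 FPKM in HCC827. PGK1 was the 1 of 22 glycolytic enzymes called, with 891 and 767 FPKM in PC9 and 7222 and 4497 FPKM in HCC827 (difference -2.78 ± 0.74, adjusted p = 0.0468). PGK1, TMSB10 and HPRT1 were higher in HCC827 among 24 abundant housekeeping genes (12.5%), and HOXA10 among 9 HOX genes (11.1%), against 4.11% of all tested genes. In either list 0 were higher in PC9. PGK1 was called in 0 of the 4 refits. Without either PC9 library MT-ND5, MT-ND4, TMSB10, HPRT1, HOXA10, RPS6, RPL23 and RPL38 were not called either (adjusted p up to 0.262). MT-ND4, TMSB10 and HPRT1 also lost theirs without the second HCC827 library, with adjusted p of 0.0668, 0.101 and 0.0501, and HOXA10 without the first (adjusted p = 0.0683).

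With the second HCC827 DMSO library and the second dormant HCC4006 library both left out, the counts of many lists grew along with those of all genes. That setting called 9.2% of all tested genes higher in PC9 and 16.4% higher in HCC827. There 1 ribosomal protein gene was higher in PC9 and 15 of the 35 in HCC827. Of the mitochondrially encoded genes 9 of 13 were higher in PC9 and 0 in HCC827, and of the glycolytic enzymes 6 and 7 of 22. The class I genes had 7 and 1 of 18, the mesenchymal genes 5 and 5 of 20, the keratins 8 and 1 of 15 and the interferon-stimulated genes 2 and 13 of 31.

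**Figure D4:**
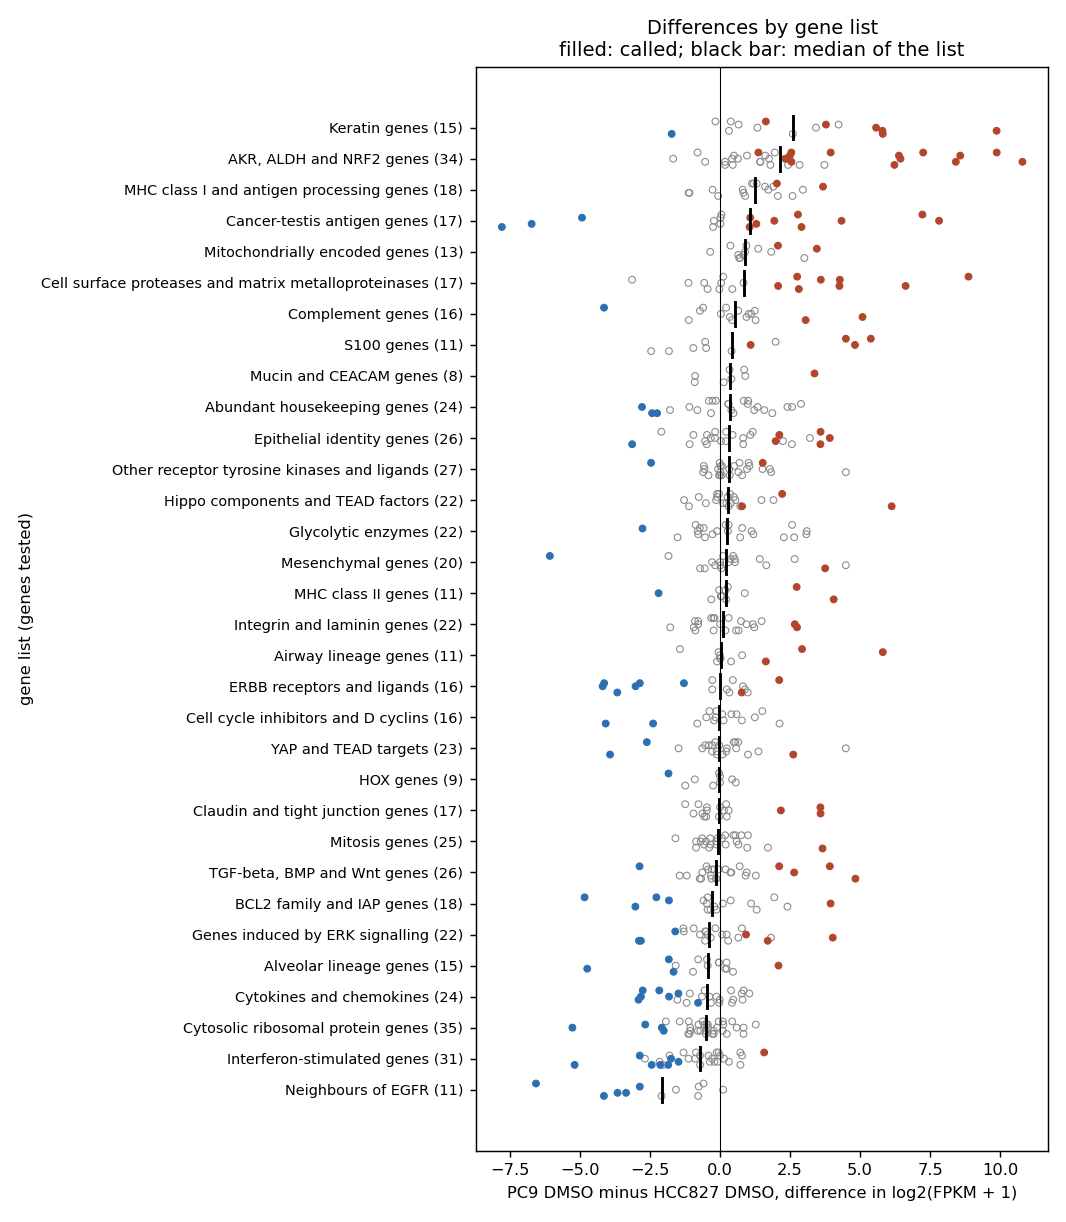
PC9 minus HCC827 difference on the log2(FPKM + 1) scale (x axis) of each tested member of the gene lists (y axis, with the number tested), filled where called, with the list's median as a black bar. Keratins and the AKR, ALDH and NRF2 genes have the highest medians, 2.60 and 2.14, and the neighbours of EGFR the lowest, -2.08.

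The same lines were compared in dormant libraries, whose levels do not enter the untreated differences, although both comparisons share the estimate of the spread and the filter on low values. There 1499 genes were called (10.2%), 4.29% of tested genes higher in PC9 and 5.91% higher in HCC827. Of the calls 42.1% were higher in PC9, a share that became 58.1% after scaling by the median of ratios and 54.8% after quantile scaling. Of the 1213 genes called in DMSO, 1158 (95.5%) had the same sign in the dormant pair, against 75.1% of all tested genes. In both pairs 640 genes were called with the same sign, which is 52.8% of the DMSO calls and 42.7% of the dormant calls, and 2 were called with opposite signs. Across all tested genes, which are not independent replicates, the differences correlated at r = 0.724. The enzyme list had 19 members higher in PC9 and 0 in HCC827 in dormant cells. AKR1C1 differed by 10.41, KRT13 by 9.52 and ALDH3A1 by 10.88. On the side of HCC827, XAGE1B differed by -8.44, NNMT by -8.78, SEC61G by -4.55, CDK4 by -6.39 and EGFR by -3.85, all called. Interferon-stimulated genes gave 11 calls higher in HCC827 and 0 in PC9. Other lists differed more from DMSO. Mitochondrially encoded genes, with 2 calls higher in PC9 and a median of 0.90 in DMSO, had 2 higher in HCC827 and a median of -1.16. Mitosis genes went from 1 to 10 calls higher in PC9, at medians of -0.08 and 1.82, and keratins from 6 to 3. The change of a list's median was not tested.

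The difference itself changed between DMSO and dormant libraries in 112 genes (0.762%), upward in 0.306% of tested genes and downward in 0.456%. The DMSO calls include 48 of them, and in 34 of those 48 the gap was smaller in dormant cells. These 48 were picked for a wide gap in DMSO, which also enters the change, so the choice favours a smaller dormant gap. KRT5 fell from a difference of 5.81 to 1.23, while KLK7 went from 4.28 to 8.06. The colony-stimulating factor CSF2 and the EGFR ligand EREG had gaps of -2.91 and -3.67 in DMSO and of -0.35 and -0.81 in dormant cells. Without the second HCC827 DMSO library 53 genes (0.361%) had a changed difference, and 32 without either PC9 DMSO library.

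**Figure D5:**
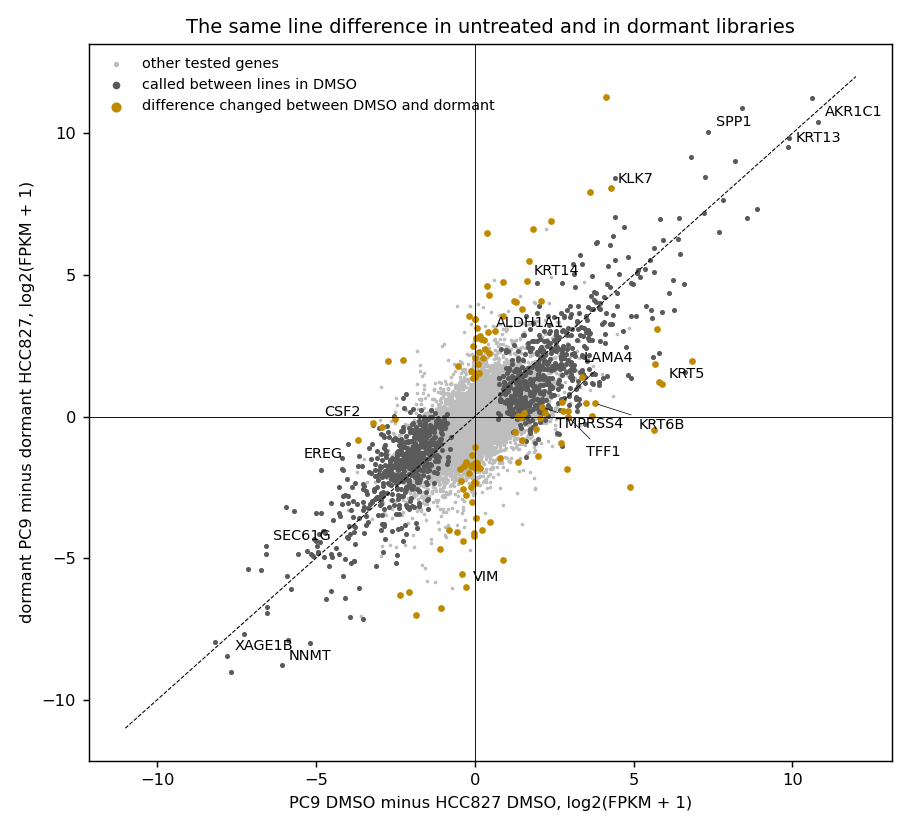
PC9 minus HCC827 difference in DMSO (x axis) against that in dormant libraries (y axis), both on the log2(FPKM + 1) scale, 1 point per tested gene. AKR1C1, KRT13 and XAGE1B lie near the dashed line of equality, and genes whose difference changed, in gold, include KRT5 and VIM.

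HCC4006 served as a reference for which line stood apart. Its mean DMSO level was nearer to PC9 in 31.5% of the genes higher in PC9 and in 53.3% of those higher in HCC827, against 44.2% of all tested genes. AKR1C1 had 0.395 and 0.275 FPKM and KRT13 0.21 and 0.34 FPKM in HCC4006, close to HCC827. KLK5, with 200 and 181 FPKM, and S100A14, with 343 and 361 FPKM, were close to PC9. EGFR had 9.33 and 14.1 FPKM and SEC61G 1161 and 1432 FPKM in HCC4006, nearer to PC9, whereas XAGE1B had 166 and 208 FPKM and CDH1 38.4 and 83.4 FPKM, nearer to HCC827.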

How the data were processed

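RNA of 12 libraries, 2 for each of 6 groups of cell line and treatment, was measured by sequencing. The authors deposited 1 table of FPKM values for 57905 genes with 2 columns per library, whose meaning the headers do not give. Per the submitters' processing notes, the tools were STAR 2.5.1b, Cufflinks 2.2.1 and DESeq2 1.10.1, with build hg19 (GRCh37) and no roles given. Both columns were averaged, log2(FPKM + 1) was taken, and 14699 genes that reached 1 FPKM in 2 or more libraries were kept. A model with 1 mean per group was fitted over all 12 libraries with limma 3.58.1 in R 4.3.3 (empirical Bayes with a mean-variance trend, 6 residual and 3.84 prior degrees of freedom). Contrasts were tested 2-sided with Benjamini-Hochberg adjustment over all tested genes, at a threshold of 0.05. The fit was tested on simulated data with changes put on genes above a floor of expression. There it called 0% of changes of 1 log2 unit and 72% of those of 4, with all other genes left without a difference.

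The members and gene lists were chosen with earlier results of these data known. Genes named are the 15 largest differences in each direction among called protein-coding genes, up to 5 called genes per list and 39 single genes. Those 15 needed a mean of at least 10 FPKM in the higher line. They also needed both libraries of 1 line above both of the other, so they cannot overlap between lines. Further list members, the neighbour runs and the cancer-testis list were chosen after their values were seen. Of the table's genes 52338 matched GENCODE v29, used for gene order, class and length only, and 27 symbols had been turned into dates. Genes of the Y chromosome, XIST and a few other genes are not reported here and are left out of the lists' counts. Refits without 1 library or with other settings are summarised in the closing section.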

Additional observations from a re-analysis of the deposited data

Results flagged for a closer look

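For 11 named genes the PC9 minus HCC827 difference changed between DMSO and dormant libraries by limma's test of that change, with Benjamini-Hochberg adjustment over all tested genes. In 5 of them a gap in favour of PC9 shrank. For KRT5 the change was -4.58 ± 0.50 (adjusted p = 0.00317), with 2.76 and 1.46 FPKM in dormant PC9 and 0.26 and 0.335 FPKM in dormant HCC827. KRT6B changed by -3.31 ± 0.35 (adjusted p = 0.00317) and the laminin chain gene LAMA4 by -2.24 ± 0.34 (adjusted p = 0.017). TFF1, listed at 0 in all dormant libraries of these lines, changed by -2.93 ± 0.34 (adjusted p = 0.00429). The protease TMPRSS4 changed by -1.78 ± 0.33 (adjusted p = 0.0468).

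Other gaps widened towards PC9. KLK7 changed by 3.78 ± 0.50 (adjusted p = 0.00734), with 313 and 353 FPKM in dormant PC9 and 0.22 and 0.285 FPKM in dormant HCC827. KRT14 changed by 3.16 ± 0.42 (adjusted p = 0.00734), with 33.9 and 44 FPKM against 0.47 and 0.38 FPKM. The retinal dehydrogenase ALDH1A1 changed by 2.55 ± 0.44 (adjusted p = 0.0308), with 9.88 and 5.01 FPKM against 0.04 and 0.01 FPKM.

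Gaps in favour of HCC827 shrank for EREG, by 2.85 ± 0.34 (adjusted p = 0.00477), and for CSF2, by 2.56 ± 0.33 (adjusted p = 0.00729). VIM, which was not called in DMSO, moved towards HCC827, by -5.73 ± 0.80 (adjusted p = 0.0108), with 2.04 and 2.48 FPKM in dormant PC9 and 205 and 212 FPKM in dormant HCC827. The dish, time and drugs of the dormant libraries all differ from those of DMSO and cannot be told apart.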

How the results depend on the processing

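The 1213 calls (609 higher in PC9, 604 in HCC827) became 2400 (1183 and 1217) with the spread from 6 DMSO libraries, 1869 (1038 higher in PC9) with scaling by the median of ratios, 2107 (1147 and 960) with quantile scaling and 2619 (1215 and 1404) with library weights. Leaving out 1 library gave 360 to 4124 calls (222 to 1807 and 138 to 2317). Leaving out both libraries that stand apart, a setting chosen after seeing the data, gave 3762 (1353 and 2409). The cause was not tested. The 1499 dormant calls became 621 with a filter of 5 FPKM, 7157 with library weights, 6335 without both libraries and 1094 to 4294 without 1 library. The 112 changed differences became 25 with a pseudocount of 0.1, 40 with the filter of 5 FPKM, 176 with quantile scaling, 643 with library weights, 70 without the trend, 862 without both libraries and 32 to 671 without 1 library. Scaling all libraries to equal sums moved the median of all differences from -0.08 to 0.02.

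Among the 147 genes picked by the naming rules, reversals of sign concerned 12, none of them called. Other tested genes are not covered. Without 1 library the differences ranged from -1.63 to 0.19 for DUSP6, -1.14 to 0.57 for VIM, -0.30 to 0.064 for MKI67, -0.25 to 0.032 for TP63, -0.43 to 0.37 for YAP1, -0.26 to 0.28 for FGFR1, -0.15 to 0.18 for ZEB1, -0.66 to 1.09 for EPCAM, -0.0092 to 0.48 for ETV5, -0.46 to 1.08 for GAPDH, -0.98 to 2.16 for CDKN2A and -0.32 to 1.88 for CCND1. Without both libraries TP63 stood at 0.032, YAP1 at 0.37, FGFR1 at -0.26, EPCAM at -0.66, GAPDH at -0.46, CDKN2A at -0.98 and CCND1 at -0.32. With equal sums MKI67 was at 0.11 and YAP1 at 0.13, with the second column alone MKI67 at 0.11 and FGFR1 at -0.017, with the median of ratios YAP1 at 0.015, with quantile scaling YAP1 at 0.030 and ZEB1 at -0.027, with a pseudocount of 0.1 ZEB1 at -0.057 and with the first column alone ZEB1 at -0.0043.

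Over 15 pairs of groups, deviations of same-numbered libraries correlated at -0.29 to 0.47, and at -0.07 between PC9 and HCC827 in DMSO. The highest value, 0.47, was between HCC827 DMSO and dormant HCC4006, whose second libraries are those that stand apart. With 2 libraries per group these values cannot decide whether same-numbered libraries share a factor, which was not tested. With the replicate number as a block 1089 genes were called. Relative depth was estimated, but FPKM give no read totals, and no counting error was set beside low values.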
